A study of Homo sapiens with 30 samples.

Results

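Histones are the proteins around which DNA is wound, and most of the supply of a dividing cell comes from the replication-dependent histone genes, which lie in clusters. In the probe annotation of these arrays they were taken as every gene name starting with HIST1H, HIST2H, H2AC, H2BC, H3C or H4C and a cluster number or letter, and as H1-1 to H1-5. This gave 62 genes of 43972 gene names on the arrays, measured by 77 probes, each 60 bases long. On hg19, 55 of the genes lie on chromosome 6 and 7 on chromosome 1. The linker histone H1 had 5 genes and 5 probes, H2A had 16 genes and 22 probes, H2B had 16 genes and 18 probes, H3 had 12 genes and 13 probes, and H4 had 13 genes and 19 probes. One of the names, H2AC2P, is a pseudogene.

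The core histones H2A, H2B, H3 and H4 form the nucleosome, and H1 binds the linker DNA between nucleosomes. Replication-dependent histone mRNAs are made in quantity while DNA is copied and are degraded when copying stops. They end in a stem-loop, which is bound by SLBP, and normally carry no poly(A) tail. NPAT and CASP8AP2 act at the histone locus body, where these genes are transcribed. Replication-independent histone genes such as H3-3B and H2AZ1 give polyadenylated mRNAs through the whole cell cycle.

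The cells were BEAS-2B, an immortalized bronchial epithelial line, grown on membrane inserts and kept at the air-liquid interface (ALI) for a day before the exposure. Whole birch pollen, 10 mg, was dispersed with pressured air in a sedimentation chamber. The control cells, labelled air and called mock here, went through the same handling without pollen, and carry the same dose label. The cells were taken at 5 times after the exposure, 10 min, 55 min and 2h25 min, then at 6h50 min and 24 h. Each exposure and time had 3 arrays, which makes 10 groups and 30 arrays in all. All groups share a single cell line, and only nearly confluent inserts were used. The labels do not say whether the arrays of a group came from separate cultures, while the methods speak of independent repetitions on different days. If the RNA came from 1 culture, the p-values measure only technical spread. The RNA was labelled with Cy3 by the Low Input Quick Amp kit, which primes on poly(A) with oligo-dT. How much of the histone mRNA that primer reached in these cells was not measured.

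The data are one-colour Agilent arrays, on which a probe's brightness follows the amount of labelled RNA. Levels are given as log2 of the processed spot brightness minus the array's own 75th percentile over the probes on both array designs, so that 0 is the level of a rather bright probe. Levels of different probes were not compared, because each probe binds with its own strength. The number of arrays limits the precision. The 75th percentile was 578.4 to 1151 brightness units on the 6h50 min arrays and 1044 to 2111 on the others. Well above background were 44.7% to 49.8% of probes on the 6h50 min arrays. On the others it was 47.5% to 59.3%, pollen 55 min replicate 1 apart. That array stood at 63.2%, counted only over the probes on both designs. The 30 arrays lay on 5 slides. All 10 min arrays shared a slide with mock 55 min replicate 1, all 6h50 min arrays had a slide of their own, and all 24 h arrays shared a slide with replicate 3 of 2h25 min of both exposures. The pollen 55 min replicate 1 array was alone on its slide and had another probe design. All 8 epithelial markers stood well above background on each array. Of 12 measured markers of other cell types, HBB, PECAM1, COL3A1 and PDGFRA were above background on 0 arrays, while PTPRC, CD14, CDH5, COL1A1 and DCN were above it on 30.

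A probe was tested if a group existed in which all 3 arrays showed it well above background, and 75 of the 77 histone probes met this, 70 of them on the whole set of 30. The probes left out were the H2BC1 probe, above background on 0 arrays, and 1 of the H2BC21 probes, above it on 1. Because the arrays average over all cells of an insert, fewer cells with histone mRNA and less of it per cell cannot be told apart.

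Histone genes of a class are near copies of each other, and this limits what a probe can resolve. Of the 77 probes, 29 shared at least 20 bases in a row with another histone probe, and the accessions of 6 probes named more than 1 RefSeq gene, up to 4. The probes of 5 H4 genes are shown with an H4C13 probe, because the first 5 fell together at 6h50 min and the last was not called. Sequences are those of the deposited probes, 5′ to 3′, with hg19 positions, and capitals mark runs of at least 12 bases found in another of the probes shown.
H4C15, chr1:149804396-149804455, plus strand: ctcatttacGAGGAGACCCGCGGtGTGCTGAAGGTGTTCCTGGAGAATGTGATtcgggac
H4C6, chr6:26240818-26240877, plus strand: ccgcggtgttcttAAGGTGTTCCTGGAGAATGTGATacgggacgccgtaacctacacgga
H4C8, chr6:26285497-26285556, minus strand: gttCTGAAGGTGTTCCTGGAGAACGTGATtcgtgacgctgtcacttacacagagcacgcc
H4C9, chr6:27107225-27107284, plus strand: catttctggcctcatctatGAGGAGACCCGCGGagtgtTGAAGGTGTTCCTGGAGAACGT
H4C12, chr6:27799089-27799148, minus strand: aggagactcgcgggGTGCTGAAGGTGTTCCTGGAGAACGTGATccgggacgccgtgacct
H4C13, chr6:27841054-27841113, minus strand: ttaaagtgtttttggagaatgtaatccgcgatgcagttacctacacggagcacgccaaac
The first 5 probes share a stretch with few differences, and over the overlap the other 4 matched the H4C6 probe at 84.8% to 93% of the bases. The H4C13 probe matched H4C6 at 40 of 49 overlapping bases, or 81.6%, and shared no run of 12 bases with any of the others.

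Other probes reach the 3′ end of the mRNA. The core of the histone stem-loop, CTTTTCAG, was found in 8 probes on the strand of the probe and in 0 on the other strand. In 5 of these the bases on both sides pair, and the element has the same letters in the probes of H2AC19, H2AC13, H2BC6, H3C15 and H3C10, with the loop in capitals.
Stem-loop in H2BC6, within chr6:26184399-26184458, plus strand: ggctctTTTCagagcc
In 4 of the 5 the probe ends 3 to 5 bases after the stem-loop. The H2AC19 probe, within chr1:149823132-149823191, goes on for 35 bases and holds the polyadenylation signal AATAAA, which was found in 6 histone probes in all.

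**Figure D1:**
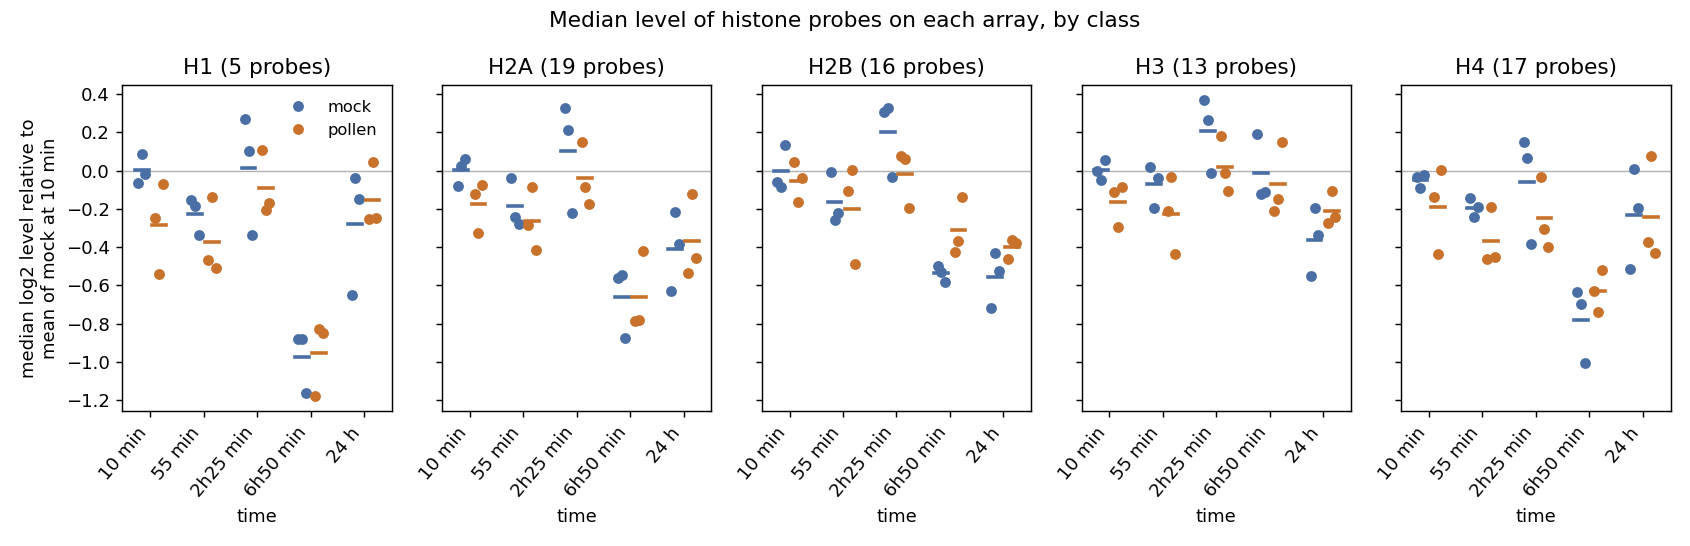
Median log2 level of the histone probes of each class on each of the 30 arrays, over the 70 probes above background on all arrays, each relative to its own mean in mock at 10 min. Points are arrays, blue for mock and orange for pollen, and bars are means of 3 arrays. All 6 of the 6h50 min arrays lie between -1.18 and -0.83 for H1, while H3 lies between -0.21 and 0.19 at that time.

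The first question was whether pollen changed the histone genes. In the limma model of all 30 arrays, 0 of the 75 histone probes were called different between pollen and mock at any of the 5 times, where a call needs a Benjamini-Hochberg adjusted p under 0.05 and a 1.1-fold change. Of all 32100 probes tested the calls were 0% at 10 min, 0.00312% at 55 min, 0.0343% at 2h25 min, 0.0436% at 6h50 min and 0.00312% at 24 h, so that few calls were made anywhere. At an unadjusted p under 0.05 there were 1, 3, 2, 4 and 2 histone probes in the order of the times, or 1.33%, 4%, 2.67%, 5.33% and 2.67%. These shares were all below those of all probes, 1.83%, 5.08%, 2.98%, 7.44% and 3.61%. The lowest adjusted p of a histone probe was 0.354, at 6h50 min. From the table of log2 values that the authors deposited, the same model called 2 histone probes at 6h50 min, H2BC3 and H2BC14, among 386 probes in all against 14 here. With the replicate number as a block the histone calls stayed at 0 at every time, and the calls over all probes were 0, 0, 44, 135 and 6.

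At each time most of the histone probes had differences of the same sign. The median log2 difference, pollen against mock, was -0.16 at 10 min, where 69 of 75 probes were lower with pollen, -0.12 at 55 min with 58 lower, and -0.18 at 2h25 min with 72 lower. At 6h50 min it was 0.07 with 53 of 75 higher, and at 24 h 0.09 with 54 higher. Over all tested probes the medians at the 5 times were 0.01, -0.01, -0.03, 0 and 0. Many histone probes share transcripts, so that these counts are not counts of independent genes. Probes of an array can also move together, so that these and later counts of signs rest on the few arrays compared. The array medians, relative to mock at 10 min, overlapped at 2h25 min. They were 0.275, 0.225 and -0.124 in mock and 0.122, -0.091 and -0.21 with pollen. At 10 min they did not overlap, at -0.041, -0.033 and 0.068 in mock and -0.119, -0.296 and -0.056 with pollen. At both times the pollen array was the lower in every same-number pair. At 2h25 min the third replicate of both exposures lay on another slide than the rest. Of all 32100 probes, 15441 were lower with pollen at 10 min and 18744 at 2h25 min. By class, the 22 H2A probes were all lower with pollen at 2h25 min, the 13 H3 probes were all lower at 10 min, 55 min and 2h25 min, and the 16 H2B probes were all higher at 24 h, with a median of 0.16. None of these single differences passed the test. The sign of the median held under every alternative at 10 min and 2h25 min. With array weights it turned at 55 min, to 0.04, and at 24 h, to -0.04. It also turned at 6h50 min without mock replicate 3, to -0.01, and at 24 h without mock replicate 1, to -0.02.

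**Figure D2:**
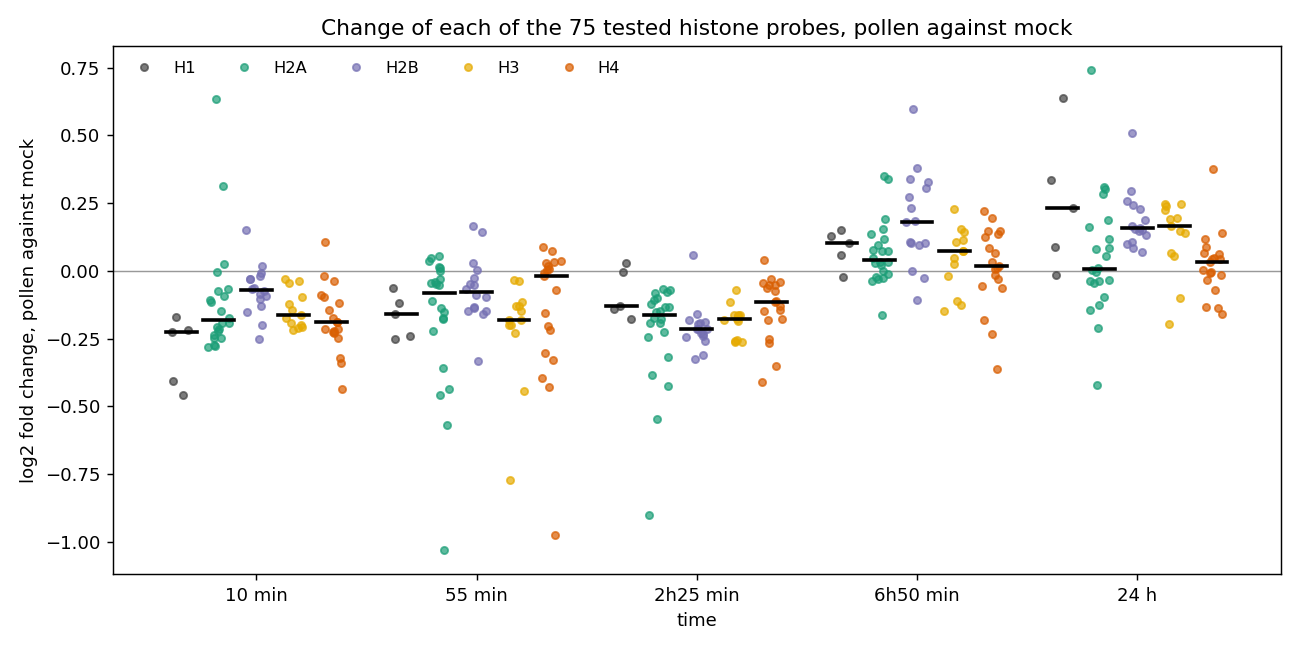
Log2 fold change between pollen and mock for each of the 75 tested histone probes at the 5 times, coloured by class. Points are probes and bars are class medians, which lie between -0.22 and -0.02 up to 2h25 min and between 0.01 and 0.23 later.

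At 10 min the histone genes with the largest difference of the same sign in all 3 same-number pairs were H1-3, H1-5 and H4C5. H1-3 was at 5.05, 5.14 and 5.07 in mock and at 4.42, 4.45 and 5.01 with pollen, a difference of -0.46 ± 0.19 (SE, adjusted p = 1 in limma). The groups did not overlap, but pollen replicate 3 lay next to the mock arrays. H1-5 differed by -0.41 ± 0.23 and H4C5 by -0.32 ± 0.18, with the smallest difference in the third pair for all 3 genes. Pollen 10 min replicate 2 had the lowest median of histone probes among the arrays of that time, at -0.30 relative to mock.

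At 55 min the comparison turned on the pollen replicate 1 array, the one of the other probe design. H3C12 was at 1.79, 1.48 and 1.64 in mock and at 0.33, 1.12 and 1.14 with pollen, or -0.77 ± 0.32 (SE, adjusted p = 0.92 in limma). Over the 4 arrays of the same slide the difference was -0.43. H2AC21 differed by -0.57 ± 0.26 with that array and by -0.11 over the 4 arrays, and H3C1 by -0.45 ± 0.22 and by -0.21.

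At 2h25 min H2BC4 was at 1.33, 1.32 and 1.01 in mock and at 0.99, 0.92 and 0.82 with pollen, with no overlap of the groups. The difference was -0.31 ± 0.14 (SE, adjusted p = 1 in limma), and the pairs with the same replicate number differed by -0.35, -0.40 and -0.19. H2AC1 differed by -0.42 ± 0.38 and H2BC7 by -0.33 ± 0.23. Within the slide that held replicates 1 and 2 of both exposures, the median over histone probes was -0.23 and 74 of 75 were lower with pollen, against a median of -0.04 over all probes.

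At 6h50 min the 3 genes with the largest rise of the same sign in all pairs were H2BC3, H2BC14 and H2BC6. H2BC14 was at 1.96, 1.88 and 2.14 in mock and at 2.33, 2.26 and 2.53 with pollen. The groups did not overlap, and the difference was 0.38 ± 0.14 (SE, adjusted p = 0.423 in limma). H2BC3 was at 0.48, 1.24 and 1.30 in mock and at 1.46, 1.54 and 1.81 with pollen, a difference of 0.60 ± 0.20. Mock replicate 1 was far below the other mock arrays. On mock replicates 1 and 2 parts of the array surface were dim, covering 2339 and 1800 probes and among them 7 and 3 histone probes. With the spots in dim areas left out, the difference was 0.30 for H2BC3 and 0.36 for H2BC14. In the authors' log2 table, where both were called, it was 0.89 (adjusted p = 0.0496) and 0.66 (adjusted p = 0.0436). H2BC6 differed by 0.34 ± 0.43.

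At 24 h H1-1, a linker histone, was at 3.35, 3.50 and 3.85 in mock and at 4.19, 3.91 and 4.50 with pollen. The groups did not overlap, by a difference of 0.64 ± 0.20 (SE, adjusted p = 0.898 in limma). H2BC6 was at -4.36, -3.97 and -4.14 in mock and at -3.69, -3.74 and -3.51 with pollen, or 0.51 ± 0.43. H1-5 differed by 0.34 ± 0.23. The probe at chr6:26138822-26138881 that the files assign to H2AC6 differed by 0.74 ± 0.19 (adjusted p = 0.682). All 3 of its mock values, -5.32, -4.94 and -5.11, lay below its pollen values of -4.49, -4.36 and -4.29. The other H2AC6 probes differed by -0.21 and 0.12.

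Whether the effect of pollen itself changed from one time to the next was tested with interaction contrasts, which share arrays with the comparisons above. From 10 to 55 min, from 55 min to 2h25 min, from 2h25 min to 6h50 min and from 6h50 min to 24 h, 0 of 75 histone probes were called, against 0%, 0%, 0.00312% and 0% of all probes in limma. At an unadjusted p under 0.05 the counts were 0, 0, 8 and 2, and the shares of all probes 3.77%, 1.38%, 5.6% and 5.16%. The 8, or 10.7%, were an H2AC6 probe and 7 H2B probes, with shifts of 0.44 to 0.75 and adjusted p of 0.747 to 0.881, so that none passed. Over all 75 probes the median shift from 2h25 min to 6h50 min was 0.26 and 68 were positive, and over the 16 H2B probes it was 0.46.

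The second question was how the histone genes moved over time within each exposure, and each comparison is with the 10 min arrays of the same exposure. At 55 min 0 of 75 histone probes were called in mock, against 0.187% of all probes, and 0 with pollen, against 0.841%. At 2h25 min there were 0 in mock, against 0.171%, and 0 with pollen, against 2.07%. At an unadjusted p under 0.05 in limma there were 3 histone probes in mock and 6 with pollen at 55 min, or 4% and 8%, against 10.8% and 15% of all probes. At 2h25 min there were 7 and 9, or 9.33% and 12%, against 12.2% and 16.5%. The median in mock was -0.17 at 55 min and 0.12 at 2h25 min, and with pollen -0.13 and 0.05, of which the first turned to 0.09 with the slide as a block and the second to -0.03 with array weights. The second was also -0.01 without pollen 10 min replicate 2 and without pollen 2h25 min replicate 1. On the slide that held both times in mock, the 2h25 min arrays were above the 55 min arrays in 69 of 75 probes, with a median of 0.51 against -0.03 over all probes. The 2h25 min mock replicate 3 array, on another slide, had a median of -0.12 relative to mock at 10 min, while replicates 1 and 2 had 0.28 and 0.23.

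At 6h50 min more histone probes were called lower than higher in both exposures. The class medians in mock were -0.97 for H1, -0.77 for H4, -0.68 for H2A, -0.57 for H2B and -0.03 for H3, and the largest single falls were in H4. In mock 1 of 75 histone probes was called higher, against 13.1% of all probes, and 44 lower, against 25.3%. With pollen 5 were called higher, against 14.6%, and 27 lower, against 28.3%, so that histone probes were called lower more often than all probes in mock, and by a smaller margin with pollen. The median log2 change was -0.58 in mock and -0.34 with pollen, and -0.17 over all tested probes in both. With the percentile taken over each array's own probes, the median of all probes was -0.03 in mock and that of the histone probes -0.44. The histone calls then fell to 19 in mock and 16 with pollen. The share of all probes called under that scaling is not reported here. All 6h50 min arrays lay on a slide of their own, so the slide and the time cannot be told apart in these comparisons. The pollen and mock comparison at 6h50 min lies within the slide.

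A group of 7 H4 probes fell together at 6h50 min, each by more than 1.5 on the log2 scale in mock and with pollen. They belong to H4C6, H4C8, H4C9, H4C11, H4C12 (both probes) and H4C15, and were picked out after their values were seen. H4C7, a dim probe, fell below the same cut and is given apart. H4C6 was at 5.03, 5.40 and 4.76 in mock at 10 min and at 2.63, 2.92 and 1.86 at 6h50 min. With pollen it went from 4.92, 4.53 and 5.09 to 2.55, 2.52 and 2.39. The changes were -2.59 ± 0.26 (SE, adjusted p = 7.21e-07 in limma) and -2.36 ± 0.26 (adjusted p = 1.84e-06), and every 6h50 min array lay below every array of the other times. At 55 min H4C6 was at 4.85, 4.68 and 4.61 in mock and at 4.93, 4.83 and 4.39 with pollen. At 2h25 min it was at 5.20, 4.93 and 4.23 and at 4.97, 4.64 and 4.61, and at 24 h at 4.15, 4.99 and 4.60 and at 4.50, 4.93 and 4.45. The level at 24 h thus overlapped that at 55 min and at 2h25 min.

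The other members of the group moved alike. H4C11 fell by 2.24 in mock and by 1.99 with pollen, the H4C12 probes fell by 2.30 and 2.00 in mock and by 1.86 and 1.62 with pollen, and H4C8 fell by 2.11 and 1.65. H4C15 fell by 2.03 and 1.74, and the changes of H4C9 were -1.89 and -1.51. All of these were called in both exposures. Relative to mock at 10 min, the median of the 7 probes was -1.92 to -2.51 on the 6 arrays of 6h50 min and -0.04 to -0.77 on those of 24 h. The 3 arrays at 24 h with mock gave -0.77, -0.04 and -0.37. The annotation of the H4C12 probe printed above names H4C9, H4C11 and H4C12, and that of the H4C15 probe names H4C14 and H4C15. Binding of the 7 probes to each other's transcripts was not tested. Each shared 22 to 37 bases in a row with another of the 7, and they are not counted as independent measurements. The 11 remaining H4 probes shared 6 to 13 with any of the fallen probes, H4C7 included. H4C7, which fell below the same cut, shared only 6 with any of the 7. On a mock array of 6h50 min the H4C8 probe lay in a dim area, and it fell by 2.18 with that spot left out.

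The 11 H4 probes outside the group, H4C7 apart, changed by -0.84 to 0.33 in mock. The H4C13 probe printed above was at -0.21, -0.51 and -0.39 in mock at 10 min and at -0.40, -0.58 and -0.25 at 6h50 min. With pollen it went from -0.47, -0.58 and -0.32 to -0.52, -0.53 and -0.15. The values of both times overlapped, with changes of -0.04 ± 0.18 and 0.06 ± 0.18. H4C2 changed by 0.33 ± 0.23 in mock and 0.04 ± 0.23 with pollen, and H4C3 by -0.34 ± 0.25 and -0.22 ± 0.25 at its brighter probe, none of them called. H4C7, a dim probe that was below background on 1 pollen array of 6h50 min, fell by 3.46 ± 0.65 and by 3.70 ± 0.65. Falls as large as those of the 7 H4 probes were not limited to histones. In mock 853 of the 32100 probes, 2.66%, changed by -1.89 or lower, where -1.89 was the smallest fall of the 7. A change below -1.5 in mock and with pollen was found for 8 H4 probes, the 7 and H4C7, and for 3.95% of all tested probes. The G and C content of the fallen H4 probes, H4C7 included, was 51.67% to 63.33%. That of the 11 other H4 probes was 38.33% to 60%, so that the ranges overlapped. Probes with 50 to 65% changed by a median of -0.32 in mock (8198 probes), and probes with under 40% by -0.05 (9690 probes). What the base composition and the slide contributed to the H4 change was not tested.

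**Figure D3:**
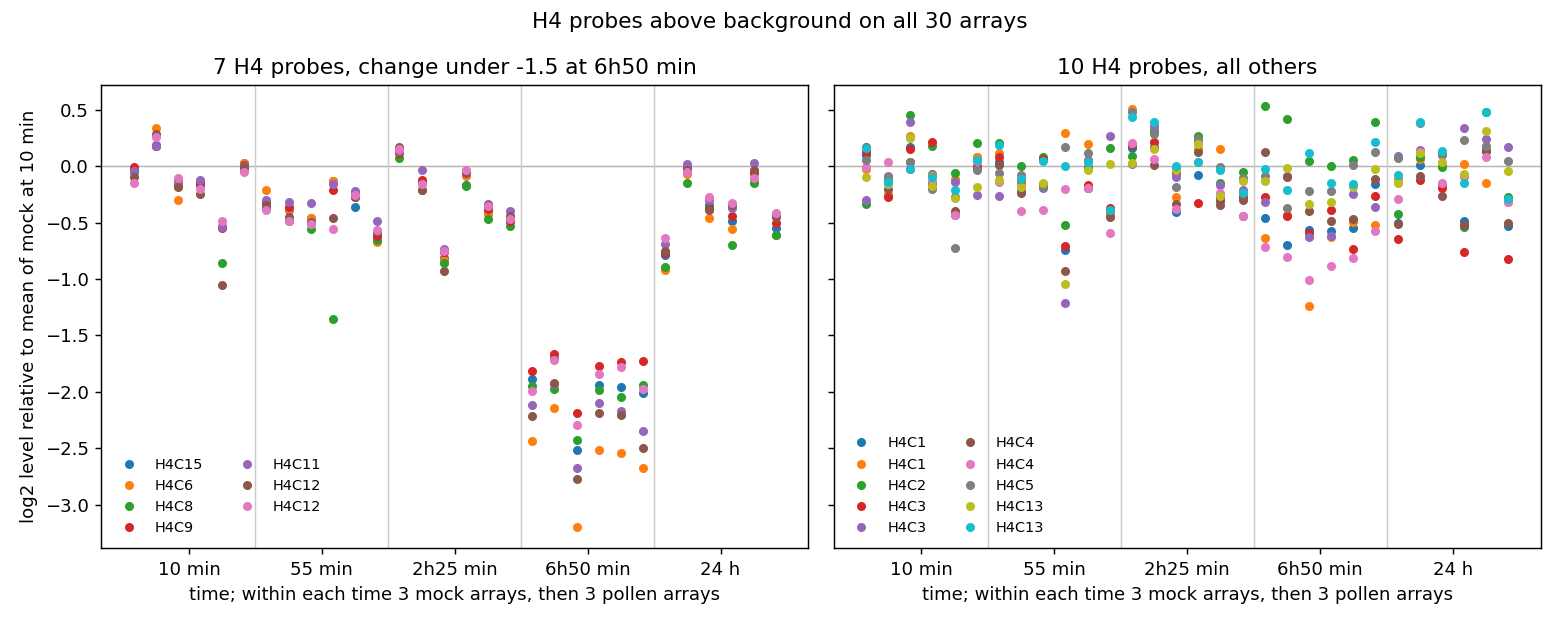
Log2 level relative to the mean of mock at 10 min for the H4 probes above background on all 30 arrays, with 3 mock and then 3 pollen arrays at each time. The medians of the 7 fallen probes at the left lie between -2.51 and -1.92 on the 6 arrays of 6h50 min, and those of the 10 other probes at the right between -0.48 and -0.14.

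Among the linker histones, all 5 H1 probes were called lower at 6h50 min in mock, with a median of -0.97, and 4 of 5 with pollen. Of all probes 25.3% were called lower in mock and 28.3% with pollen. H1-4 was at 5.59, 5.88 and 5.72 in mock at 10 min and at 4.32, 4.46 and 4.04 at 6h50 min. With pollen it went from 5.58, 5.31 and 5.65 to 4.37, 4.51 and 4.40. These were changes of -1.46 ± 0.18 (adjusted p = 6.84e-06 in limma) and -1.09 ± 0.18 (adjusted p = 0.000108), with no overlap. H1-3 changed by -0.94 ± 0.19 in mock and by -0.43 ± 0.19 with pollen, where it was not called. At 24 h H1-4 was back at 5.26, 5.75 and 5.58 in mock and at 5.59, 5.77 and 5.49 with pollen, and its change since 10 min was -0.20 and 0.10, not called, or 0.28 and 0.58 with the slide as a block.

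The proteins of the H2A and H2B genes pair in the nucleosome. Of 22 H2A probes 11 were called lower in mock at 6h50 min and 10 with pollen, and of 16 H2B probes 14 and 4, where 25.3% and 28.3% of all probes were called lower. The 4 of 16 lay below the share of all probes. H2AC12 was at 6.10, 7.0 and 6.77 in mock at 10 min and at 4.81, 5.55 and 5.49 at 6h50 min, which is -1.34 ± 0.28 (adjusted p = 0.00101 in limma), and its change with pollen was -0.90 ± 0.28. The mock 6h50 min replicate 1 value lay in a dim area, and without it the change was -1.11. H2AC14 and H2AC15 fell by 1.04 and 1.06 in mock and by 0.77 and 0.81 with pollen. H2BC21 fell by 0.91 and 0.82 and H2BC17 by 0.72 and 0.60, and H2BC14 by 0.62 in mock, with -0.17 and no call with pollen. The larger number of H2B calls in mock than with pollen is no test of a difference between the exposures, and the contrast between pollen and mock at 6h50 min, given above, called none of them.

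H3 supplied most of the rises at 6h50 min, with 4 of the 5 histone probes called higher with pollen and the single one in mock. Of all probes 14.6% were called higher with pollen and 13.1% in mock. H3C4 was at 5.43, 5.29 and 5.49 in mock at 10 min and at 5.99, 5.73 and 6.11 at 6h50 min. With pollen it went from 5.32, 5.05 and 5.24 to 5.84, 6.08 and 6.06. It rose by 0.54 ± 0.14 (adjusted p = 0.0041 in limma) and by 0.79 ± 0.14 (adjusted p = 0.000153). With pollen H3C7 rose by 0.59, H3C10 by 0.60 and H3C8 by 0.42, at values in mock of 0.27, 0.36 and 0.26 that were not called. The H3C7 and H3C10 probes each shared 30 bases in a row with another histone probe, and their rises are not counted as independent measurements. The remaining probe called higher with pollen was that of H2AC11 at chr6:27101247-27101306, by 0.47. In mock H3C15, H3C11 and the second H3C10 probe were called lower, by 0.63, 0.52 and 0.71. The 1 called higher and 3 called lower of the 13 H3 probes in mock lay below the shares of all probes, 13.1% and 25.3%.

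**Figure D4:**
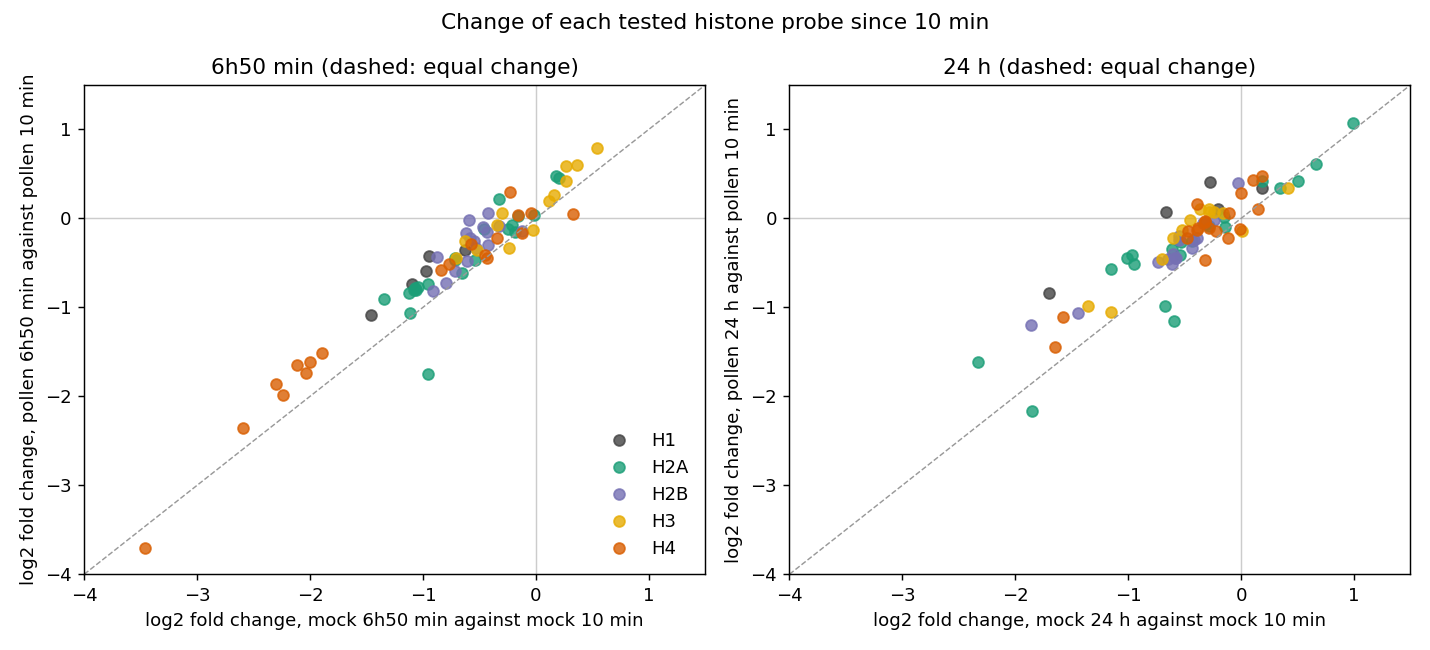
Log2 fold change since 10 min of the 75 tested histone probes, mock on the horizontal and pollen on the vertical axis, at 6h50 min at the left and at 24 h at the right. Points are probes coloured by class and the dashed line marks equal change. The 7 H4 probes form a separate cloud at 6h50 min, between -2.59 and -1.89 in mock, and H4C7 lies below it.

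At 24 h the picture depended on the slide. In mock 3 histone probes were called higher than at 10 min, against 17.5% of all probes, and 31 lower, against 20%. With pollen 4 were called higher, against 15.8%, and 19 lower, against 19.5%. The median change was -0.39 in mock and -0.15 with pollen, and -0.06 and -0.07 over all probes. With the slide as a block in the model, the calls fell to 2 in mock and 1 with pollen, and the medians became 0.17 and 0.43. Calls fell outside the histone probes too. For the 34 S phase genes in mock they went from 3 higher and 18 lower to 0 and 2. The share of all probes called with the block is not reported here. The block rests on a chain through 55 min mock replicate 1 and replicate 3 of 2h25 min, and raised the median SE in mock from 0.184 to 0.334. Within the slide of the 24 h arrays, the median difference from 2h25 min replicate 3 was -0.30 in mock and -0.12 with pollen, and -0.04 over all probes in both. The direction of the change of the histone genes as a group at 24 h was thus not settled.

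H2AC20 was the histone gene called at 24 h in both exposures with the slide block as well as without it. It was at 4.51, 4.54 and 4.55 in mock at 10 min and at 5.42, 5.79 and 5.37 at 24 h. With pollen it went from 4.47, 4.38 and 4.40 to 5.64, 5.59 and 5.21. No 24 h value overlapped those of 10 min, 55 min or 6h50 min, while the mock 2h25 min replicate 1 array, at 5.21, reached the lowest of 24 h. It rose by 0.99 ± 0.16 (adjusted p = 3.77e-05 in limma) and 1.07 ± 0.16 (adjusted p = 2.59e-05), and by 1.59 ± 0.30 and 1.66 ± 0.30 with the slide block (adjusted p = 0.00558 and 0.00747). H2AC20 lies on chromosome 1. Its neighbour H2AC21 changed by 0.66 ± 0.26 and 0.61 ± 0.26, not called. The other histone genes with a higher probe at 24 h were H3C3 in both exposures, by 0.41 and 0.34, H2AC19 in mock, by 0.51, and H2AC17 and H4C5 with pollen, by 0.41 and 0.47.

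The probe with the largest fall at 24 h in mock was the one at chr6:26138822-26138881 assigned to H2AC6. It was at -2.99, -2.68 and -2.73 in mock at 10 min and at -5.32, -4.94 and -5.11 at 24 h. With pollen it went from -2.84, -2.90 and -2.57 to -4.49, -4.36 and -4.29. The changes were -2.33 ± 0.19 (adjusted p = 1.7e-08 in limma) and -1.61 ± 0.19, and with the slide block -1.95 ± 0.38 (adjusted p = 0.00616) and -1.24 ± 0.38 (adjusted p = 0.0803). H1-1 was at 5.03, 5.34 and 5.42 in mock at 10 min and fell by 1.70 ± 0.20 (adjusted p = 1.53e-06), and with pollen by 0.84 ± 0.20. With the slide block its changes were -0.89 and -0.03. H2BC7 fell by 1.44 and 1.06, H3C12 by 1.15 and 1.05, and H2BC6 by 1.86 and 1.19, and with the slide block neither H1-1 nor any of these was called. For H2BC6 the block turned the sign, to 0.58 and 1.25. Its arrays at 55 min, -0.87, -1.85 and -2.67 in mock and -0.95, -1.77 and -2.82 with pollen, spread widely within an exposure and were close between exposures at the same replicate number.

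Probes of a single gene did not always move together, and 14 histone genes had more than 1 probe. At 24 h in mock the 3 H2AC6 probes changed by -2.33, -0.54 and 0.34. The first of them lies at chr6:26138822-26138881, away from the others at chr6:26124403-26124520, and its accessions named no RefSeq gene. The H2AC19 probe with stem-loop and AATAAA changed by -0.61 and the other, at chr1:149822628-149822687, by 0.51, both called. At 6h50 min in mock the H4C8 probe printed above fell by 2.11 and the H4C8 probe at chr6:26281286-26281345 changed by -0.45. That second H4C8 probe was not well above background on any mock array of 24 h, where it was at least 2.26-fold lower than at 10 min. In the same way H2AC2P was at least 1.41-fold lower with pollen at 6h50 min, and the H2AC11 probe at chr6:27102290-27102349 at least 1.1-fold lower with pollen at 24 h. Those bounds set the bright group's mean against the dimmest signal still well above background. The second H4C8 probe was above background on 22 of 29 arrays, H2AC2P on 13 of 30 and this H2AC11 probe on 10 of 30. Such probes pass the filter through groups where they are bright, which favours a fall from those groups. Their falls, which are among the calls counted above, are therefore no support for a fall of histone genes. The second H4C8 probe and the brighter H2AC11 probe are absent from the other design and so have no pollen 55 min replicate 1 value. The H3C10 probe at chr6:27778255-27778314, which ends just after the stem-loop, fell by 0.71, while the one at chr6:27778041-27778100 changed by 0.36. The H4C12 probes differed by 0.30 and the H4C13 probes by 0.12.

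The promoters show what the classes share upstream. RefSeq sequences of 250 bases before to 50 after the start, on GRCh38.p14, were matched for 56 of the 62 genes and searched on both strands. CCAAT was found in 48 of the 56 (85.7%), against 39.7% of all 27305 promoters, and TATAAA in 40 (71.4%), against 14%. The octamer ATTTGCAT was in 25 (44.6%), against 2.19% of all promoters. It was found in 13 of 16 H2B and 11 of 14 H2A promoters, in 1 of 10 H3 promoters, and in 0 of 5 for H1 and 0 of 11 for H4. CCAAT was in 3 of 11 H4 promoters and in all promoters of the other classes. TTTCCCGC or TTTGGCGC was found in 1 promoter (1.79%), against 2.75% of all. The upstream part of the H2BC11 promoter is shown because it holds 3 of these motifs, in capitals on either strand. Its first capitals join TATAAA with an overlapping copy on the other strand, and ATTGG is CCAAT read on the other strand.
H2BC11, GRCh38.p14 chr6:27132796-27133045, minus strand: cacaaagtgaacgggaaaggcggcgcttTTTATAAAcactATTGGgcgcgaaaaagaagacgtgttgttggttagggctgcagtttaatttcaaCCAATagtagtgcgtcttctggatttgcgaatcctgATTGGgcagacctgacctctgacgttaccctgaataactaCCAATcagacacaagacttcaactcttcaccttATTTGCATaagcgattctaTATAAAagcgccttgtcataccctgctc
ATTTGCAT starts 47 bases before the transcript start and the nearer TATAAA 28 bases before it. H2BC11 itself fell by 0.55 ± 0.14 in mock at 6h50 min (adjusted p = 0.00405 in limma) and changed by -0.25 ± 0.14 with pollen, where it was not called.

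Genes that act on histone mRNA were read from a list of 24 genes for its transcription, 3′ processing and decay, all measured. Between pollen and mock 0 of 24 were called at every time. In mock 6 were called higher and 3 lower at 6h50 min, and 10 higher and 2 lower at 24 h, with medians of 0.09 and 0.22. Of all probes 13.1% were called higher and 25.3% lower in mock at 6h50 min, and 17.5% and 20% at 24 h. With pollen there were 8 and 2 of the list at 6h50 min and 7 and 2 at 24 h. The shares of all probes with pollen were 14.6% and 28.3%, and then 15.8% and 19.5%. SLBP, which binds the stem-loop, changed by 0.15 ± 0.10 at 6h50 min in mock and rose by 0.33 ± 0.10 at 24 h (adjusted p = 0.0142 in limma). With pollen its changes were -0.05 and 0.17, not called. NPAT changed by 0.03 and -0.13 in mock and by -0.34 and -0.25 with pollen, not called. CASP8AP2 fell by 1.01 ± 0.24 and by 0.73 ± 0.24 in mock, and changed by -0.28 and -0.36 with pollen, not called. ERI1, an exonuclease of the histone mRNA end, rose at 24 h by 0.39 and 0.44, and SRRT, a partner of the cap-binding complex, rose by 0.86 and 1.1 at 6h50 min. With the slide block 1 gene of the list was called at 24 h in mock and 0 with pollen.

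A list of replication-independent histone genes had 11 measured genes, of which 2 were called higher and 1 lower in mock at 6h50 min, and 3 and 2 at 24 h. The list was written from general knowledge and holds H2AX and H2BU1 as well. Whether the mRNAs of its genes carry a poly(A) tail in these cells was not measured. With pollen there were 3 and 1 at 6h50 min and 2 and 2 at 24 h. For this list and the chaperones below, the shares of all probes called higher and lower in mock were 13.1% and 25.3% at 6h50 min. At 24 h in mock they were 17.5% and 20%. With pollen they were 14.6% and 28.3% at 6h50 min and 15.8% and 19.5% at 24 h. H3-3B, a source of the replacement histone H3.3, rose by 0.42 ± 0.14 in mock and 0.66 ± 0.14 with pollen at 6h50 min, and by 0.82 and 0.74 at 24 h. H2AZ1 rose by 0.67 ± 0.14 at 24 h in mock and changed by 0.36 ± 0.14 with pollen, not called. H2AX, which marks DNA breaks when phosphorylated, fell by 0.91 and 0.63 at 24 h. With the slide block 0 of the 11 were called at 24 h. Among 18 histone chaperones 5 were called higher and 2 lower in mock at 6h50 min and 9 and 1 with pollen. At 24 h there were 5 and 2 in mock and 3 and 3 with pollen, and 0 in each exposure with the slide block.

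Histone mRNA follows DNA replication, and 34 genes of S phase were read for that reason. Between pollen and mock 0 were called at every time. At 6h50 min, where the 7 H4 probes fell, 9 were called higher and 7 lower in mock and 7 and 6 with pollen, with medians of 0.12 and 0.14. The shares of all probes called higher and lower at 6h50 min were 13.1% and 25.3% in mock and 14.6% and 28.3% with pollen. PCNA, the clamp of DNA polymerase, changed by 0.01 ± 0.09 and -0.06 ± 0.09 there. E2F1, a transcription factor of S phase genes, rose by 0.34 ± 0.10 in mock at 6h50 min, and CCNE2 was not called at 6h50 min or 24 h. At 24 h 3 were called higher and 18 lower in mock and 2 and 18 with pollen. The shares of all probes at 24 h were 17.5% and 20% in mock and 15.8% and 19.5% with pollen. The shares of both times also apply to the mitosis and marker counts below. MCM6, a part of the replicative helicase, fell by 1.11 and 1.06, and CCNE1 by 0.76 and 0.65. CDC25A rose by 0.99 and 0.63, and PCNA by 0.26 and 0.25. With the slide block 2 of the 34 were called at 24 h in each exposure, both lower. Of 21 mitosis genes 0 were called higher and 12 lower in mock at 24 h and 2 and 4 with pollen, and 0 in each exposure with the slide block. Of the 8 epithelial markers 1 was called higher and 5 lower at 24 h in each exposure, and of the 7 tested markers of other cell types 0 and 2. With the slide block the epithelial counts were 0 and 3 in mock and 0 and 1 with pollen, and the others 1 and 1 in each. At 6h50 min the epithelial counts were 1 and 5 in mock and 1 and 2 with pollen, and the other markers 0 and 3 and 0 and 4. Their part in the histone result was not tested.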

How the data were processed

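The authors deposited, per array, spot intensities from Agilent Feature Extraction 11.0.1.1, background-subtracted and detrended within the array per the file headers. They also deposited a table of log2 values made with limma per the methods and used as an alternative here. In R 4.3.3 with limma 3.58.1 and data.table (1.17.8), outlier spots were left out, spots of a probe averaged, and each array's 75th percentile, taken over the 33873 probes that both designs hold, subtracted on the log2 scale. The filter kept 32100 probes that were well above background throughout some group of 3 arrays. Group means of all 30 arrays were fitted with lmFit and eBayes (2.35 prior and 20 residual degrees of freedom), with Benjamini-Hochberg adjustment over all tested probes. A call needs an adjusted p under 0.05 and a 1.1-fold change, the cut-offs of the methods. A probe without a value on an array was fitted on the others. The fit was tested on simulated data. The precision rests on 3 arrays per group, and 0 spots were saturated.

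Histone genes and gene lists were chosen with earlier results of these data known. The genes named are those called in any comparison, the highest and lowest of each class by the mean signal of each gene's brightest probe (an order of spots, not of mRNA amounts), and up to 3 in each direction per comparison with the largest change, above background in both groups and, for pollen, of one sign in all 3 same-number pairs, with 10 regulators and variants fixed by name. Others were chosen after their values were seen. Dim areas are blocks of 12 by 12 spots under -0.3 in median log2 deviation. Deviations of same-number arrays of both exposures from their group means correlated in all 3 pairs at 10 min (r of 0.30 to 0.31), 2h25 min (0.38 to 0.50) and 24 h (0.19 to 0.42), but not at 55 min (-0.05 to 0.23) or 6h50 min (0.05 to 0.09). The fit had no block, and the blocked fit is an alternative. Alternatives were other scalings, background correction, filter, array weights, slide or replicate block, fewer arrays or probes, dim areas left out, and each array left out. The results of a few listed genes are not reported here.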

Additional observations from a re-analysis of the deposited data

How the results depend on the processing

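Pollen against mock gave 0 called histone probes at every time under all alternatives but the authors' log2 table at 6h50 min (2). For the changes since 10 min, leaving out each array gave 34 to 47 calls in mock and 26 to 35 with pollen at 6h50 min, 23 to 36 and 9 to 29 at 24 h, and 0 to 1 and 0 to 2 at 2h25 min. At 24 h with pollen the count fell from 23 to 12 without pollen 10 min replicate 1, to 14 without replicate 3, and to 9 without pollen 24 h replicate 1. With the percentile over each array's own probes, on which the array of the other design stands apart, 19 and 16 were called at 6h50 min and 13 and 5 at 24 h. With no filter 11 were called at 24 h with pollen. At 2h25 min the authors' table gave 2 in mock and 1 with pollen, and array weights gave 1 in each exposure at 55 min and at 2h25 min. With the slide as a block 2 and 1 were called at 24 h. The replicate block left 45 calls in mock at 6h50 min and 34 at 24 h, 33 and 24 with pollen, and moved none of these counts by over 1.5 times. For the changes since 10 min, the shares of all probes called under the alternatives are not reported here, so these counts are not read as particular to histone probes. Where no cause is named, the cause was not tested.

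Beside the medians whose turns stand in the report, directions turned for these values. With the slide block at 24 h in mock the changes were 0.04 for H2AC6 (chr6:26124461-26124520), 0.45 for H2AC16, 0.58 for H2BC6 and 0.07 for H2BC9. They were also 0.07 for H3C10 (chr6:27778041-27778100), 0.05 for H2BC11, 0.10 for H2BC12 (chr6:27114437-27114496), 0.14 for H2BC13 and 0.08 for H2BC17. With pollen the changes were 0.11 for H2AC14, 0.19 for H2AC15, 0.04 for H2BC4, 1.25 for H2BC6, 0.21 for H2BC7 and 0.05 for H2BC8. They were 0.20 for H2BC9, 0.01 for the other H2BC12 probe (chr6:27106191-27106250), 0.18 for H2BC14 and H2BC17, and 0.08 for H3C11. At 2h25 min the block gave 0.03 for H4C8 in mock and 0.15 for H2BC4 with pollen. At 55 min with pollen, own-probe percentiles gave -0.13 for H4C5 and -0.32 for H2AC17, which was at -0.02 in the authors' table and between -0.01, without pollen 55 min replicate 1, and 0.23 when each array was left out. H4C2 at 55 min in mock was at -0.07 with dim areas left out, and between -0.07, without mock 10 min replicate 1, and 0.32 when each array was left out, and PCNA at 24 h with pollen at -0.01 in the authors' table.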
